A study of Mus musculus with 33 samples.

Results

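Expression of 10 genes used as markers of neurons in general was followed in mouse blastocysts cloned from neurons and from other cells. The genes were Nefl, Nefm, Tubb3, Map2, Gap43, Rtn1, Snap25, Syt1, Eno2 and Uchl1. They were taken by name. Every non-control probe of the array whose gene name was 1 of these was used, including the older names Nef3 for Nefm and Mtap2 for Map2. This gave 24 of 41174 probes, and each gene had between 1 and 5. The question was whether clones of neurons keep or lose these transcripts compared with clones of cells that are not neurons.

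The 33 samples were single blastocysts on the background (C57BL/6NxDBA/2)F1, each hybridised to its own Agilent array with 1 dye. Clones had been made by moving the nucleus of a donor cell into an oocyte without its own nucleus. Male clones came from adult Purkinje cells of the cerebellum (n = 4), adult CA1 pyramidal cells of the hippocampus (n = 4) and neonatal Sertoli cells, which nurse germ cells in the testis (n = 4). Female clones came from adult Purkinje cells (n = 4), adult CA1 pyramidal cells (n = 4) and adult cumulus cells, which surround the oocyte (n = 3). Blastocysts from in vitro fertilisation (IVF), male (n = 7) and female (n = 3), were the controls without a donor cell. All 23 clones and no IVF embryo were labelled as TSA treated (trichostatin A at 50 nM, which blocks histone deacetylases), and an effect of cloning cannot be told apart from one of TSA. All embryos were cultured for 96 h. The number of donor animals is not given in the labels, and p-values reflect only how far single embryos of a group differed.

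Neurofilaments, microtubules and their binding proteins give the neuron its long processes, and synaptic proteins such as Snap25 and Syt1 release transmitter from vesicles. Outside the nervous system many such genes are held silent by REST, a repressor that recruits histone deacetylases and other enzymes to chromatin. Somatic cell nuclear transfer resets the donor nucleus to an embryonic programme, so a neuronal transcript in a cloned blastocyst can be compared with its level in embryos that never held a neuronal nucleus.

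Levels are log2 values of the background-corrected signal over the 75th percentile of the array. A shared floor of -3.43 was set on this scale because low signals differed between the array sets. A probe counts as well above background where the scanner software marked it so. The floor is the highest, over arrays, of the 1st percentile of levels so marked, and it came from Sertoli clone replicate 4. That percentile was lower on other arrays, such as -5.64 in male CA1 replicate 1. A probe can therefore be so marked and still lie at the floor. On each array 45.2% to 62.5% of all probes were well above background, with the lowest shares in Sertoli clones (45.2% to 46.1%). Purkinje clones had the dimmest arrays, with 75th percentiles of 229.7 to 838.0, against 904.3 to 1465.6 elsewhere. The 13 IVF and cumulus arrays were read on another scanner with an earlier software version. Between them and the other clone arrays, donor or cloning and array set cannot be told apart. Cumulus clones and IVF embryos shared scanner and software version, but not slide or scan day. Each clone group lay on its own slide, so donor and slide cannot be told apart either. All 9 blastocyst markers examined, among them Pou5f1, Cdx2 and Krt8, were well above background on every array. Of markers of the donor cells, the Purkinje cell genes Calb1 and Pvalb, the CA1 gene Neurod6, the Sertoli cell gene Wt1 and the cumulus gene Ptgs2 were well above background on no array of any group. Other genes of these lists were detected: of 6 Purkinje cell genes 3 were well above background on every array of each Purkinje group, and 2 or 3 in each other group, and of 6 CA1 genes 3 in each CA1 group and 2 in each other group. In whole blastocysts fewer cells with a transcript and less transcript per cell cannot be told apart.

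Of the 10 genes 5 were well above background on at least 30 of 33 arrays. Eno2, a glycolytic enzyme of neurons, and Tubb3, the neuronal beta-tubulin, were well above background on all 33 arrays. Nefl, the light neurofilament chain, had at least 1 of its 2 probes well above background on all 10 IVF and all 23 clone arrays. Rtn1, a reticulon of the endoplasmic reticulum, was well above background on 30 of 33 arrays at each of its 2 probes. Uchl1, a neuronal ubiquitin hydrolase, reached that mark on 31 arrays at 1 probe and on 7 at the other.

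The other 5 genes were seen on fewer arrays or on none. Gap43, a protein of growing axons, was well above background on 0 of 33 arrays. Snap25, a membrane protein of the vesicle fusion complex, had 3 probes, and 1 of them was well above background on 3 male IVF arrays and nowhere else. Syt1, the calcium sensor of vesicle release, was well above background in 14 of 50 pairs of probe and array in IVF embryos (28.0%) and in 4 of 115 in clones (3.5%). Nefm, the medium neurofilament chain, gave 9 of 20 such pairs in IVF embryos and 4 of 46 in clones. These were 4 of 32 in neuron clones and 0 of 14 in Sertoli and cumulus clones. The mark was not alike on all arrays. At 1 Nefm probe a signal of 25.4 was unmarked on a Sertoli array, and 25.0 was marked on a male IVF array. The counts therefore do not rank the donors. Map2, which binds microtubules in dendrites, gave 12 of 40 such pairs in IVF embryos, 11 of 64 in neuron clones and 4 of 28 in Sertoli and cumulus clones, and 1 of its probes alone was well above background on 20 of 33 arrays. The synaptic genes were thus seen in more IVF than clone samples, by a count without a test and with the IVF arrays all in the earlier set. On the cumulus arrays, also of the earlier set, no Snap25 or Syt1 probe was well above background. The highest level that any Snap25, Syt1 or Gap43 probe reached on any array was -2.47, at 1 Syt1 probe in a male IVF embryo.

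**Figure D1:**
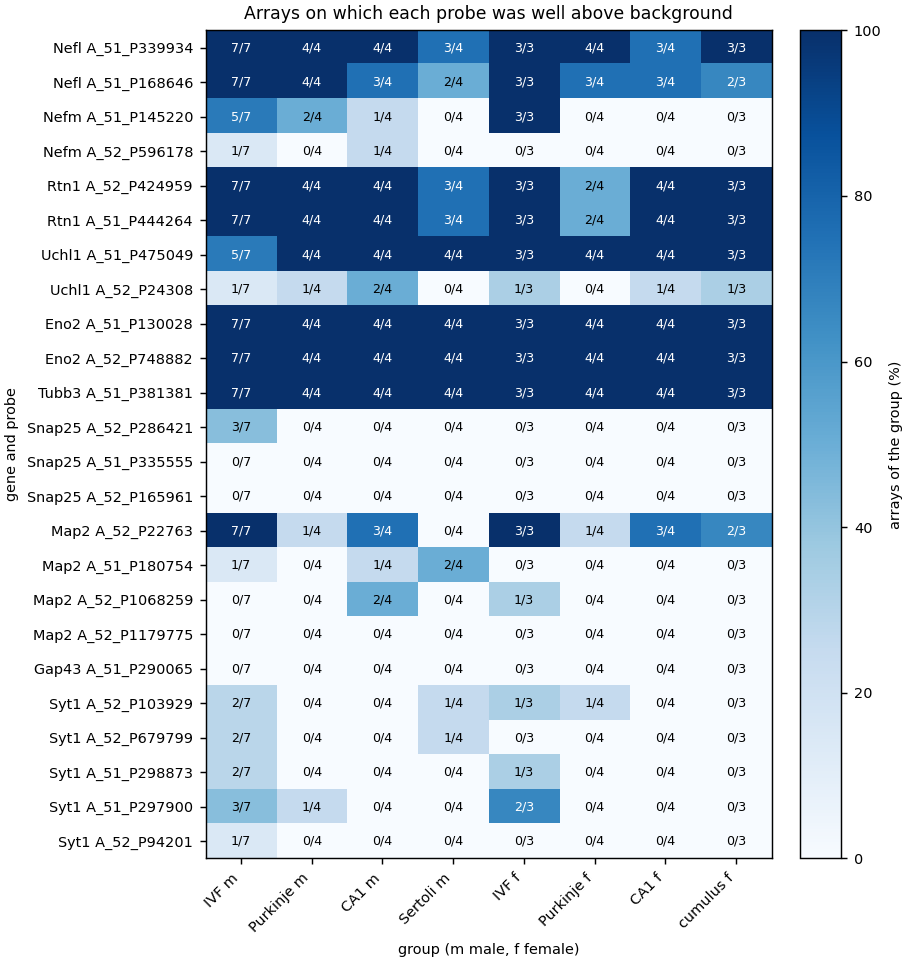
The share of arrays of each group (columns, m male and f female) on which each of the 24 probes (lines) was well above background; each cell gives the number of arrays of the group. Eno2 and Tubb3 are full in every group (33 of 33 arrays), and Gap43 is empty (0 of 33).

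Testing was limited to probes that more than 50% of the arrays in some group had well above background. Of the 24 probes 10 passed, against 22789 of all 41174, and they covered 7 genes: Nefl, Rtn1 and Eno2 with 2 probes each, and Nefm, Uchl1, Tubb3 and Map2 with 1 each. The Nefm probe passed only through the IVF groups, and it lay above the floor on 3 of 33 arrays. The Map2 probe did so on 10 of 33. Snap25, Gap43 and Syt1 were not tested.

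RefSeq promoter windows of 300 bases around a start site, most of them upstream of it, on build GRCm38.p6, were matched for 6 of the 10 genes, in 9 windows. Those of Eno2, Uchl1 and Rtn1 are shown because the results turn on these genes and Rtn1 has 3 starts. Capitals mark TATAAA and GGGCGG, the cores of the TATA box and the GC box, on either strand. No TATAAA match overlaps a GGGCGG match in these windows, and in the Rtn1 window with 3 GGGCGG matches 2 of them share bases.
Eno2: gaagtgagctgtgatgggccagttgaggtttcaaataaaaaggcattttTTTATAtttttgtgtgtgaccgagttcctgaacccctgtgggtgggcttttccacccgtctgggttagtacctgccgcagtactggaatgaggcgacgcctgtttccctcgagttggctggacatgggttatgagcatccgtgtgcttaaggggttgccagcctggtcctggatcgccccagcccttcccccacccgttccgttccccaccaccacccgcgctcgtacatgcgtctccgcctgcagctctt
Uchl1: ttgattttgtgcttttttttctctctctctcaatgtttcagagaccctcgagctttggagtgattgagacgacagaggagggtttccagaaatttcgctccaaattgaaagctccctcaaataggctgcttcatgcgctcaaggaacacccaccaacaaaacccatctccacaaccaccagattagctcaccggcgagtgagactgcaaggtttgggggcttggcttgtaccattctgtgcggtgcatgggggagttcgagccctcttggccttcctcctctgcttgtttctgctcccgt
Rtn1 at chr12:72235697-72235996: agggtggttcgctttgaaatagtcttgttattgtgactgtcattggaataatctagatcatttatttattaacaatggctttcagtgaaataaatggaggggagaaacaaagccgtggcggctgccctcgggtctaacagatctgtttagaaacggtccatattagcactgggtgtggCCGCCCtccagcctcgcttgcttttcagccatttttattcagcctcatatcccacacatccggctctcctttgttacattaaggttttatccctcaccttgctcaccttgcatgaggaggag
Rtn1 at chr12:72409005-72409304: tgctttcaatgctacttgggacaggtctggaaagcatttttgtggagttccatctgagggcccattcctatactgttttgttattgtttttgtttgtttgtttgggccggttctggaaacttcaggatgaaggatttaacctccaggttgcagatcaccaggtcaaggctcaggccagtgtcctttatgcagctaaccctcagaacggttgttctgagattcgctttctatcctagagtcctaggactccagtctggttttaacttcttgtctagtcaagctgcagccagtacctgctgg
Rtn1 at chr12:72236678-72236977: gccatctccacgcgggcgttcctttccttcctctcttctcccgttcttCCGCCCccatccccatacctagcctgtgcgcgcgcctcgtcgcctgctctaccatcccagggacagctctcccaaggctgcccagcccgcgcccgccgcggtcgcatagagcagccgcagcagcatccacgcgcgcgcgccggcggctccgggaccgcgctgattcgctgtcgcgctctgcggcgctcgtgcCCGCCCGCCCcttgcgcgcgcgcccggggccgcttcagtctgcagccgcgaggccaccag

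The Eno2 window (chr6:124769624-124769923, minus strand) held 1 TATAAA, which 13.6% of 32851 windows in the table hold, and the Uchl1 window (chr5:66675871-66676170, plus strand) held neither motif. The 3 Rtn1 windows lie on chromosome 12, minus strand. The window at chr12:72236678-72236977 held 3 copies of GGGCGG, 43 CpG sites and 73.3% G and C, and 94.5% of all windows had a lower share. The windows at chr12:72235697-72235996 and chr12:72409005-72409304 held 1 and 0 copies and 45.3% and 46.3% G and C. GGGCGG occurs in 35.7% of all windows. A match is a description of these letters and not of a bound factor.

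Neuron clones were compared first with clones of other donors, the comparison the question asks for. No probe of the 10 genes was called higher in neuron clones in any of the 4 comparisons on this scale, with a call made at an adjusted p under 0.05 (limma, Benjamini-Hochberg over all 22789 probes, two-sided). Of all probes, 2.58%, 4.18%, 11.5% and 11% were called higher there. Male Purkinje clones had 0 of 10 probes called against Sertoli clones, where 3.76% of all probes were called. At an unadjusted p under 0.05 there were 3, all higher, a Nefl probe and both Rtn1 probes, where 16.9% of all probes were. Male CA1 clones had 0 higher and 1 lower, an Eno2 probe, where 9.47% of all probes were called. Female Purkinje clones had 0 higher and 2 lower against cumulus clones, both Eno2 probes, where 15.7% were called. Female CA1 clones had 0 of 10 called, where 17.2% of all probes were called, and 0 at an unadjusted p under 0.05, where 29.8% were. The median change of the 10 probes was 1.03, 0.06, -0.05 and 0.21 in these comparisons, and that of all probes 0.02, 0.00, 0.08 and 0.05. In each comparison 1 of the 10 probes lay on the floor in every array of both groups, Map2 in Purkinje against Sertoli clones and Nefm in the other three, so its outcome was fixed and the counts rest on 9 probes. The medians over those 9 were 1.40, 0.08, -0.10 and 0.32. Nefm was not well above background on any female Purkinje or cumulus array, yet it was called higher in female Purkinje than cumulus clones by settings that treat low signals differently: by 2.07 with normexp background correction, 4.40 with a floor at a signal of 1 and 3.94 in the authors' deposited values (adjusted p = 0.0265, 0.00365 and 0.00838).

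**Figure D2:**
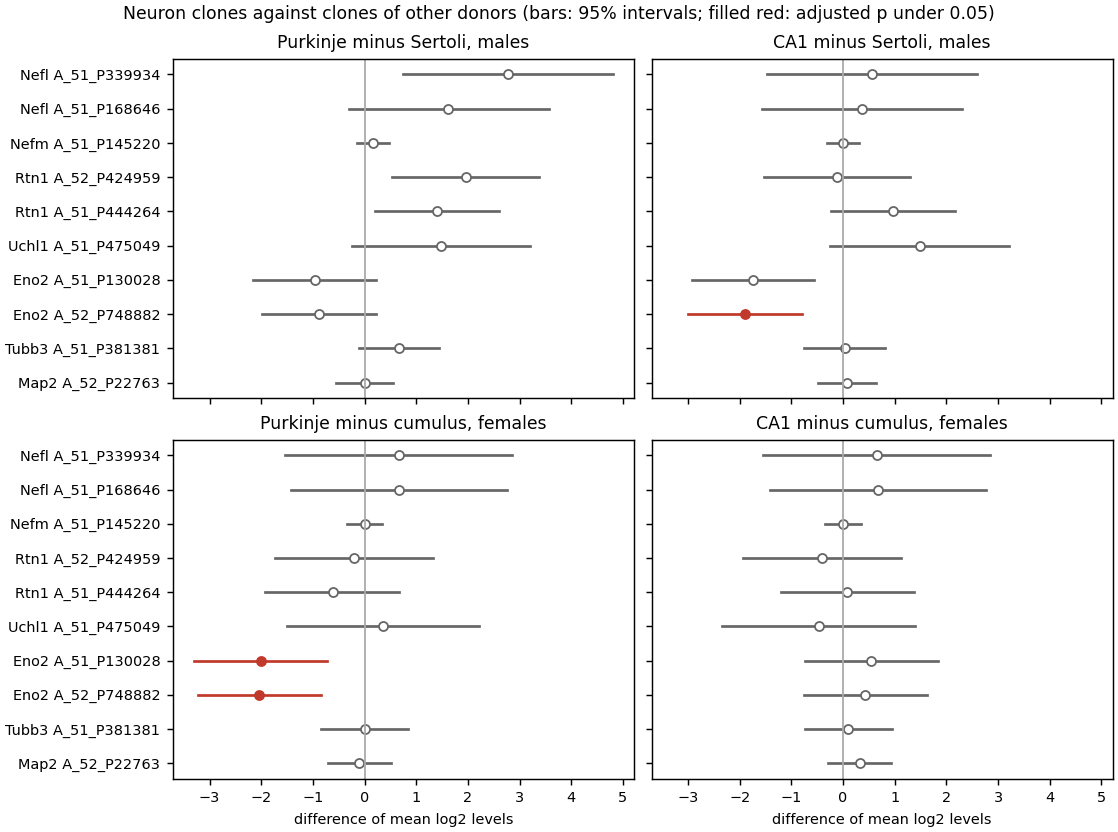
Differences of mean log2 levels (x axis) of the 10 tested probes (y axis) between neuron clones and Sertoli or cumulus clones of the same sex; bars are 95% confidence intervals and filled red points have an adjusted p under 0.05. The points that are filled are Eno2 probes below 0: 1 in CA1 against Sertoli clones (-1.90) and 2 in Purkinje against cumulus clones (-2.01 and -2.04).

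Nefl stood highest in IVF embryos and varied most between the clone groups. Where a gene had 2 tested probes, the first is the one that stands for the gene by its mean level over all arrays. At the first probe (A_51_P339934) the 7 male IVF embryos ranged from 0.19 to 3.27 with a median of 1.83. The 4 male Purkinje clones had 0.60, -0.80, 1.47 and 0.94. The 4 male CA1 clones had -1.67, -3.34, -0.23 and -1.44. Purkinje clones thus overlapped the IVF range, and 3 of 4 lay above every CA1 clone. The 4 Sertoli clones had -3.43, -1.29, -1.23 and -2.96. All 4 Purkinje clones lay above all 4 Sertoli clones, and CA1 and Sertoli clones overlapped.

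The difference of Nefl between male Purkinje and Sertoli clones was 2.78 ± 0.99 (SE), a 6.86-fold ratio with a 95% interval of 0.74 to 4.81 on the log2 scale, and did not pass (adjusted p = 0.119). Between CA1 and Sertoli clones it was 0.56 ± 0.99 (interval -1.48 to 2.60, adjusted p = 0.839). The second probe (A_51_P168646) gave 1.62 (adjusted p = 0.405) and 0.36 (adjusted p = 0.923). The Purkinje arrays with the highest Nefl levels, replicates 3 and 4, had 75th percentiles of 367.7 and 229.7, the lowest of their group, and the part of signal strength in these levels was not tested.

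In females Nefl was split within each clone group. The female Purkinje clones had -3.43, 1.06, -3.43 and -1.55 and the CA1 clones -2.42, -3.06, -3.43 and 1.51. The cumulus clones had -0.63, -3.43 and -3.43. One clone of each neuron group was high and the others were low, and all 3 clone groups overlapped. Purkinje clones differed from cumulus clones by 0.66 ± 1.07 (interval -1.54 to 2.86, adjusted p = 0.771) and CA1 clones by 0.65 ± 1.07 (-1.55 to 2.85, adjusted p = 0.781). These intervals reach far to both sides of 0, so the absence of a call does not show that the groups are alike. The high Purkinje clone, replicate 2, came from the array with the lowest 75th percentile of its group (353.8).

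Rtn1 followed a pattern close to that of Nefl in males. At the first probe (A_52_P424959) the male IVF embryos ranged from -0.32 to 0.85 with a median of 0.34. The male Purkinje clones had -0.63, -0.84, 0.72 and -0.31, and the CA1 clones -2.36, -1.78, -2.60 and -2.60. The Sertoli clones had -1.87, -1.72, -1.87 and -3.43. Every Purkinje clone lay above every CA1 and every Sertoli clone. The difference from Sertoli clones was 1.96 ± 0.69 (interval 0.54 to 3.37, adjusted p = 0.113) at this probe and 1.40 ± 0.59 (0.20 to 2.60, adjusted p = 0.204) at the other (A_51_P444264), where the groups did not overlap either, and neither passed. CA1 clones differed from Sertoli clones by -0.11 ± 0.69 (adjusted p = 1) and 0.96 ± 0.59 (adjusted p = 0.339).

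Among females Rtn1 was low and scattered in all 3 clone groups. The Purkinje clones had -0.84, -3.43, -3.43 and -1.06, the CA1 clones -0.76, -3.43, -1.99 and -3.37, and the cumulus clones 0.30, -3.41 and -2.84. The groups overlapped, and 2 of the 4 Purkinje clones were not well above background at either probe. Against cumulus clones the Purkinje difference was -0.20 ± 0.75 (interval -1.73 to 1.32, adjusted p = 0.943) and the CA1 difference -0.40 ± 0.75 (-1.93 to 1.12, adjusted p = 0.814). The second probe gave -0.62 and 0.08, and neither passed.

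Eno2 was the only member called between neuron clones and other clones on this scale, and it was lower in male CA1 clones and in female Purkinje clones. At its first probe (A_51_P130028) the Sertoli clones had 0.59, 1.89, 1.21 and 1.63. The male CA1 clones had -1.16, 0.07, 0.01 and -0.57, all below every Sertoli clone, and the male Purkinje clones had 0.46, 1.26, 0.45 and -0.69, which overlapped them. The other probe (A_52_P748882) separated CA1 from Sertoli clones in the same way. At this second probe Eno2 fell by 1.90 ± 0.54 (SE) in CA1 against Sertoli clones (adjusted p = 0.0251), to a mean of -0.97 ± 0.62 (SD, n = 4) from 0.93 ± 0.63 (n = 4). The first probe gave -1.74 ± 0.58 and did not pass (adjusted p = 0.0548). Without CA1 replicates 1 or 4 or Sertoli replicates 2, 3 or 4 the call was lost, with changes between -2.19 and -1.65 over all alternatives. Against Sertoli clones Purkinje clones differed by -0.96 ± 0.58 and -0.88 ± 0.54 (adjusted p = 0.424 and 0.433).

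In females the cumulus clones had Eno2 levels of 1.55, 0.02 and 0.39 and the CA1 clones 1.49, 1.23, 1.29 and 0.80. The Purkinje clones had -1.12, 0.02, -1.37 and -2.97. The highest Purkinje clone and the lowest cumulus clone were both at 0.02, and every Purkinje clone lay below every CA1 clone. Eno2 fell in Purkinje against cumulus clones, with changes of -2.01 ± 0.63 at the first probe and -2.04 ± 0.58 at the other (adjusted p = 0.028 and 0.0168), a 4.04-fold and a 4.11-fold ratio. Both calls were lost with normexp and with only the compared groups fitted, and without Purkinje replicate 4 or cumulus replicate 1, the first probe's also without cumulus replicate 3, and both without the 3 female Purkinje arrays of low signal (75th percentile under 500). CA1 clones differed from cumulus clones by 0.55 ± 0.63 (interval -0.73 to 1.83, adjusted p = 0.63) and 0.43 ± 0.58 (-0.76 to 1.62, adjusted p = 0.7).

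Uchl1, with 1 tested probe (A_51_P475049), showed no call between clone groups. The male Purkinje clones had 1.03, -0.89, -1.70 and -1.76, the CA1 clones 0.01, -2.10, 0.39 and -1.66, and the Sertoli clones -3.28, -1.35, -2.71 and -1.93. Neuron clones reached higher than Sertoli clones and overlapped them. Purkinje and CA1 clones each differed from Sertoli clones by 1.48 ± 0.84 (adjusted p = 0.39 and 0.297). In females the Purkinje clones had -2.70, -0.15, -0.30 and -0.99, the CA1 clones -3.43, -2.34, 1.76 and -3.43, and the cumulus clones -1.65, -1.33 and -1.19. The CA1 group held both the highest and the lowest values, and the differences from cumulus clones were 0.35 ± 0.91 and -0.47 ± 0.91 (adjusted p = 0.886 and 0.828).

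Tubb3, Map2 and Nefm were low in all clones. Tubb3 lay between -2.60 and -0.64 in every clone. Its differences were 0.67 ± 0.38 (interval -0.11 to 1.45) and 0.03 ± 0.38 (-0.75 to 0.81) against Sertoli clones in Purkinje and CA1 clones, and 0.00 ± 0.41 and 0.10 ± 0.41 against cumulus clones. None passed. The Map2 probe (A_52_P22763) lay on the floor in all 8 Purkinje and all 4 Sertoli clones, and its highest clone value was -1.76, in female CA1 replicate 1. Nefm lay above the floor in 1 of the 23 clones, male Purkinje replicate 3, at -2.78. Of values that did not pass, the sign turned with another background correction or scaling for Tubb3 (CA1 against Sertoli and cumulus clones), Rtn1 (both female comparisons), Uchl1 (both female comparisons) and Map2 (Purkinje against cumulus clones).

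**Figure D3:**
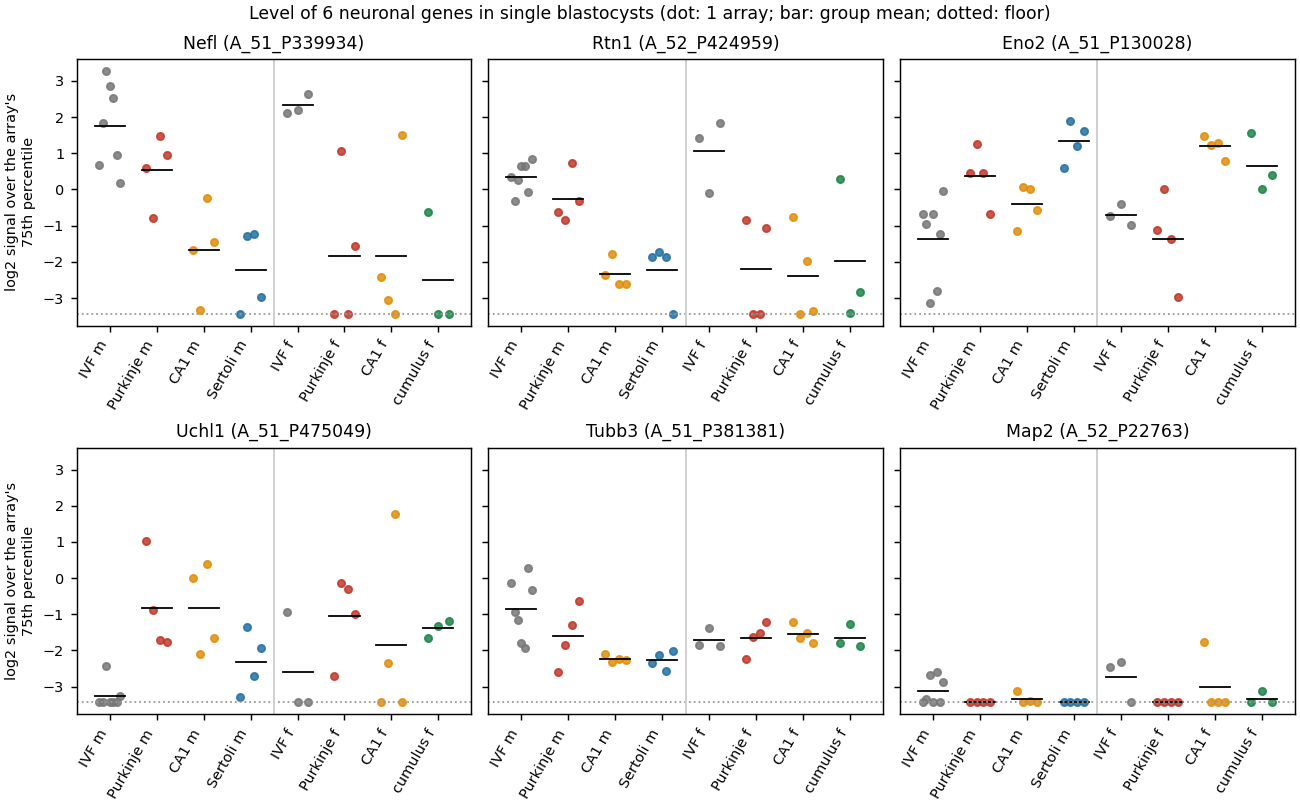
Levels of 6 genes at their first or sole tested probe in each of the 33 blastocysts (dots), as log2 signal over the 75th percentile of the array, by group (m male, f female); bars are group means and the dotted line is the floor at -3.43. Nefl and Rtn1 are highest in IVF embryos and stay higher in male Purkinje than in Sertoli clones without a call, Eno2 is lowest in IVF embryos and female Purkinje clones, and Uchl1 is on the floor in 5 of 7 male IVF embryos.

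The 2 kinds of neuron clone were then compared with each other, since both were in the newer array set. In males 1 of 10 probes was called, where 15.7% of all probes were: Rtn1 rose by 2.07 ± 0.69 in Purkinje against CA1 clones at A_52_P424959 (adjusted p = 0.0399), with no overlap. The other Rtn1 probe gave 0.44 ± 0.59 (adjusted p = 0.707), so the probes disagree. The Rtn1 call was lost without Purkinje replicates 3 or 4 or CA1 replicates 1, 3 or 4, and without the 2 male Purkinje arrays of low signal. Nefl differed by 2.22 ± 0.99 and 1.26 ± 0.94 (adjusted p = 0.131 and 0.419).

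In females 2 of 10 probes were called, against 9.61% of all probes, and both were Eno2. Eno2 fell, with changes of -2.56 ± 0.58 and -2.47 ± 0.54, in Purkinje against CA1 clones (adjusted p = 0.00583 and 0.00425), a 5.90-fold and a 5.56-fold ratio with no overlap. Without the 3 female Purkinje arrays of low signal, which leaves 1 Purkinje clone assumed to vary like the other groups, neither probe passed, and neither passed with the spread taken from the compared groups alone. Leaving out any single array of the compared groups ended neither call. In males the same contrast was 0.78 ± 0.58 and 1.02 ± 0.54, so the Eno2 difference between neuron types had opposite signs in the sexes. The test of this difference gave 3.34 ± 0.82 and 3.50 ± 0.76 (adjusted p = 0.0301 and 0.0125), and 1.63% of all probes passed it. At the first probe it did not pass without Purkinje male replicates 2 or 3, Purkinje female replicates 3 or 4, CA1 male replicates 1 or 4, or CA1 female replicate 1, with values of 2.46 to 3.80 over all alternatives. At the other probe it passed without any single array and did not pass without the Purkinje arrays of low signal.

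IVF embryos gave the level without a donor nucleus. In males 4 of 10 probes were called in Purkinje clones (3 higher, 1 lower), 6 in CA1 clones (1 higher, 5 lower) and 7 in Sertoli clones (2 higher, 5 lower), where 26.5%, 28.2% and 24.2% of all probes were called. In females 4 were called in Purkinje clones (all lower), 4 in CA1 clones (1 higher, 3 lower) and 3 in cumulus clones (all lower), against 17.1%, 11.8% and 4.61%. The medians of the 10 probes were -0.46, -0.81 and -0.86 in males and -0.74, -0.29 and -0.44 in females, beside 0.04, 0.00 and 0.00 and 0.06, 0.03 and 0.00 over all probes. These comparisons share their IVF samples within a sex. Nefl, Rtn1 and Tubb3 made up all the lower calls, and Eno2 and Uchl1 all the higher ones.

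**Figure D4:**
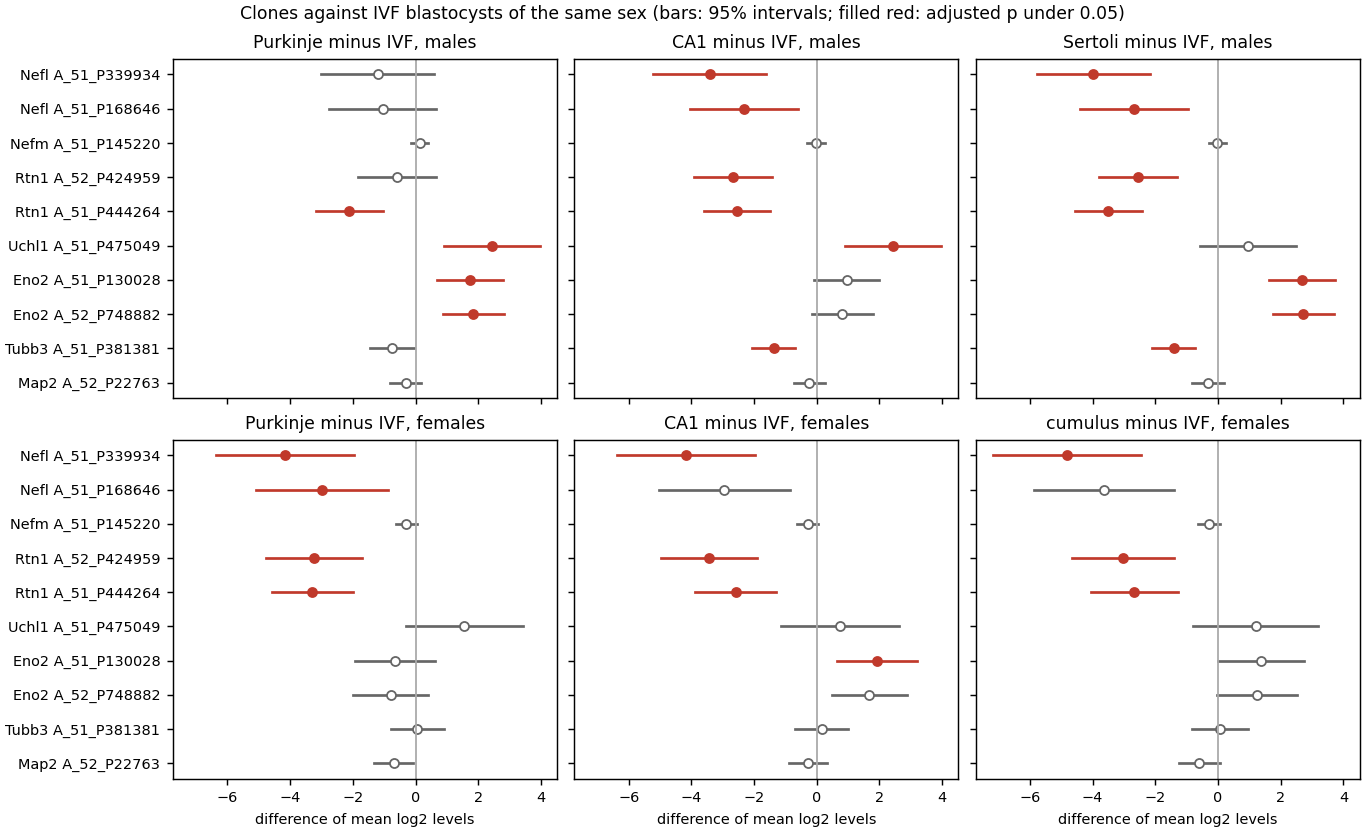
Differences of mean log2 levels (x axis) of the 10 tested probes (y axis) between each clone group and IVF blastocysts of the same sex; bars are 95% confidence intervals and filled red points have an adjusted p under 0.05. Nefl and Rtn1 lie below 0 in all 6 panels, with values for the first Nefl probe from -4.83 in cumulus clones to -1.21 in male Purkinje clones.

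Nefl fell at its first probe in male CA1 clones (-3.42 ± 0.88) and in Sertoli clones (-3.98 ± 0.88), with adjusted p = 0.00429 and 0.00163, and no clone of either group reached the lowest IVF embryo. In male Purkinje clones the difference was -1.21 ± 0.88 (interval -3.01 to 0.60) and did not pass (adjusted p = 0.336). The female IVF embryos had 2.12, 2.21 and 2.65, above every female clone. Nefl changed by -4.17 ± 1.07 in female Purkinje clones, -4.18 ± 1.07 in CA1 clones and -4.83 ± 1.15 in cumulus clones (adjusted p = 0.0083, 0.0113 and 0.0166). The cumulus call was lost without cumulus replicates 2 or 3, and the female Purkinje call without the arrays of low signal. The second probe passed in male CA1, Sertoli and female Purkinje clones (-2.31, -2.67 and -2.99). Its male CA1 call was lost without CA1 replicates 1, 2 or 4 or IVF replicates 3, 4 or 5, its Sertoli call without Sertoli replicates 2, 3 or 4, and its female Purkinje call without Purkinje replicates 1, 3 or 4 or any of the 3 IVF embryos.

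Rtn1 fell in male CA1 clones (-2.67 ± 0.61 and -2.55 ± 0.52 at its probes) and in Sertoli clones (-2.56 ± 0.61 and -3.50 ± 0.52). The highest of the 4 adjusted p was 0.00322, and no clone of these groups reached an IVF embryo at either probe. In male Purkinje clones the probes disagreed: -0.60 ± 0.61 at the first (adjusted p = 0.511) and -2.11 ± 0.52 at the other (adjusted p = 0.00363), a call lost without the arrays of low signal. In females Rtn1 changed by -3.24 ± 0.75 and -3.29 ± 0.63 in Purkinje clones, -3.44 ± 0.75 and -2.59 ± 0.63 in CA1 clones and -3.04 ± 0.80 and -2.67 ± 0.68 in cumulus clones. All 6 passed (highest adjusted p = 0.0274). The female Purkinje calls were lost without the arrays of low signal. The cumulus calls were lost without cumulus replicate 2 and without IVF replicate 3 at both probes, without cumulus replicate 3 or IVF replicate 1 at the first, and without IVF replicate 2 at the other.

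Eno2 moved the other way in males. The male IVF embryos ranged from -3.13 to -0.05 with a median of -0.95 at the first probe. All 4 Sertoli clones lay above all 7 of them, and Purkinje clones overlapped them. Eno2 rose by 2.69 ± 0.51 and 2.72 ± 0.48 in Sertoli clones (adjusted p = 0.000394 and 0.000161) and by 1.73 ± 0.51 and 1.84 ± 0.48 in Purkinje clones (adjusted p = 0.0135 and 0.00532). The Purkinje call at the first probe was lost without Purkinje replicate 2. CA1 clones differed by 0.95 ± 0.51 and 0.82 ± 0.48 (adjusted p = 0.177 and 0.212).

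The female IVF embryos had Eno2 levels of -0.74, -0.40 and -0.98. Every CA1 clone and every cumulus clone lay above them, and Purkinje clones lay on both sides. Eno2 rose by 1.91 ± 0.63 in CA1 clones at the first probe (adjusted p = 0.0448) and differed by 1.68 ± 0.58 at the other (adjusted p = 0.057). Leaving out any single CA1 or IVF array ended that call, with changes of 1.73 to 2.06 over all alternatives. Cumulus clones differed by 1.36 ± 0.67 and 1.25 ± 0.62 (adjusted p = 0.254 and 0.26), and Purkinje clones by -0.65 ± 0.63 and -0.79 ± 0.58 (adjusted p = 0.539 and 0.391).

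Uchl1 was on the floor in 5 of 7 male IVF embryos, and the other two had -2.44 and -3.26, while 5 of the 7 were well above background. It rose by 2.43 ± 0.75 in male Purkinje clones and by 2.42 ± 0.75 in CA1 clones (adjusted p = 0.0171 and 0.0157), and every clone of both groups lay above every IVF embryo. The fold rests on values at the floor and is a difference of floored means. The Purkinje call was lost without Purkinje replicate 1 and the CA1 call without CA1 replicates 1 or 3. Sertoli clones differed by 0.95 ± 0.75 (adjusted p = 0.391). In females the IVF embryos had -0.94, -3.43 and -3.43, and no clone group passed on this scale (differences of 1.56, 0.74 and 1.21). With normexp the female Purkinje clones passed (2.42, adjusted p = 0.018, limma).

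Tubb3 ranged from -1.92 to 0.29 in male IVF embryos, with a median of -0.94. The CA1 clones had -2.10, -2.33, -2.23 and -2.26 and the Sertoli clones -2.36, -2.13, -2.56 and -2.01. Tubb3 changed by -1.38 ± 0.34 in CA1 and -1.41 ± 0.34 in Sertoli clones (adjusted p = 0.00283 and 0.00316). Every clone of both groups lay below every IVF embryo, and the spread among these clones (SD 0.10 and 0.25) was smaller than among IVF embryos (SD 0.84). Purkinje clones, at -2.60, -1.85, -1.29 and -0.64, differed by -0.75 ± 0.34 and did not pass (adjusted p = 0.104). That difference did pass with scaling to the array median (-1.09) and without the Purkinje arrays of low signal (-1.38). It also passed without Purkinje replicate 4 (-1.06), IVF replicate 4 (-0.90) or IVF replicate 5 (-0.92). In females the 3 clone groups differed from IVF embryos by 0.06, 0.16 and 0.06, and none passed. Map2 and Nefm passed in none of the 6 comparisons on this scale. With a floor at a signal of 1 Nefm passed in female CA1 (-3.74) and cumulus clones (-6.00), with normexp in male Purkinje clones (1.54), and Map2 passed in female Purkinje clones without IVF replicate 3 (-1.05). The Nefm probe had entered testing only through the IVF groups. It was well above background on all 3 female IVF arrays and not on any female CA1 or cumulus array. How much lower it lay there depends on the floor chosen, so a fall could not be measured.

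Ordered by mean level in males, Nefl ran from IVF embryos (1.76 ± 1.18, SD, n = 7) through Purkinje (0.55 ± 0.97, n = 4) and CA1 (-1.67 ± 1.28, n = 4) to Sertoli clones (-2.23 ± 1.13, n = 4), and each neighbouring pair overlapped. Rtn1 ran from IVF embryos (0.34 ± 0.43) through Purkinje (-0.26 ± 0.69) and Sertoli (-2.22 ± 0.81) to CA1 clones (-2.34 ± 0.39), with a gap only between Purkinje and Sertoli clones. Eno2 ran the other way, from Sertoli (1.33 ± 0.57) through Purkinje (0.37 ± 0.80) and CA1 clones (-0.41 ± 0.58) to IVF embryos (-1.36 ± 1.16), and each neighbouring pair overlapped. In females Eno2 ran from CA1 (1.20 ± 0.29, n = 4) through cumulus clones (0.65 ± 0.80, n = 3) and IVF embryos (-0.71 ± 0.29, n = 3) to Purkinje clones (-1.36 ± 1.23, n = 4), with a gap only between cumulus clones and IVF embryos.

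A list of 54 further neuronal genes was examined, of which 53 were on the array and 32 had a tested probe (41 of 108 probes). In Purkinje against Sertoli clones 2 of the 41 probes were higher and 0 lower (4.88%, against 3.76% of all probes), both of Myt1l, a neuronal zinc finger repressor, at 3.36 and 1.01 (adjusted p = 0.00647 and 0.02). Both Myt1l calls were lost without the Purkinje arrays of low signal and with only the compared groups fitted. Both were also lost with a floor at a signal of 1 and in the authors' deposited values. The smaller one was lost too with scaling to the array median, with only the newer arrays and without Purkinje replicates 3 or 4. Its changes ran from 0.28 to 2.87 over its alternatives. In CA1 against Sertoli clones 3 were higher and 0 lower (7.32%, against 9.47%): Tubb2b, a beta-tubulin (1.93), Elavl3, an RNA-binding protein (1.03), and Ncam1, an adhesion molecule (0.77). Leaving out CA1 replicates 1 or 4 or any of Sertoli replicates 1, 2 and 3 ended all 3 calls, CA1 replicate 3 also ended that of Tubb2b and CA1 replicate 2 that of Ncam1. The changes ran from 1.44 to 2.57, from 0.89 to 2.72 and from 0.57 to 0.87.

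In Purkinje against cumulus clones 3 of the 41 probes were higher and 1 lower (9.76%, against 15.7%), with the largest changes in Stx1a, a syntaxin (-1.24), Ncam1 (1.04) and Cplx2, a complexin (0.85). All 3 calls were lost without the arrays of low signal. The Stx1a call, whose sign turned with normexp background correction, was also lost without Purkinje replicate 2 or cumulus replicates 2 or 3, and the Cplx2 call without Purkinje replicates 2, 3 or 4 or any cumulus array. In CA1 against cumulus clones 1 was higher and 0 lower (2.44%, against 17.2%): Chga, a protein of secretory granules, at 1.81 ± 0.37 (adjusted p = 0.0016), a call kept in all 17 alternatives. No gene of the list was called the same way in both neuron groups of a sex. The medians of the 41 probes in the 4 comparisons were 0.00, 0.19, 0.00 and 0.16, beside 0.02, 0.00, 0.08 and 0.05 over all probes.

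REST and genes of its complexes, 15 in all, were also examined, with 25 of 29 probes tested. Against Sertoli clones 0 probes were called in Purkinje clones, where 3.76% of all probes were (limma). At an unadjusted p under 0.05 there were 3 (12%, against 16.9% of all probes). CA1 clones had 2 higher and 2 lower against Sertoli clones (16%, against 9.47% of all probes). Rest itself was lower by 0.98 ± 0.29 in CA1 clones (adjusted p = 0.0347) at its first probe. The corepressor Rcor1 fell by 1.24 ± 0.27 (adjusted p = 0.00477) at 1 of its 2 tested probes. The phosphatase Ctdsp1 rose by 1.01 ± 0.25 (adjusted p = 0.0114). At that Rest probe the means were 3.17 in CA1 clones, 3.03 in male IVF embryos, 4.05 in Purkinje and 4.14 in Sertoli clones. Sertoli clones lay above IVF embryos there by 1.11 (adjusted p = 0.00271), but below them by 3.82 at another Rest probe (adjusted p = 0.00246). The Rest call between CA1 and Sertoli clones held in 9 of 19 alternatives. It was lost without CA1 replicates 1, 3 or 4 or Sertoli replicates 1, 2 or 3, with changes of -1.19 to -0.86. Against cumulus clones 4 were higher and 2 lower in Purkinje clones (24%, against 15.7%) and 3 and 3 in CA1 clones (24%, against 17.2%).

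Genes called the same way in both female neuron groups against cumulus clones were the deacetylase Hdac1, the phosphatase Ctdsp2, Rcor1 and Rest. Hdac1, with 1 tested probe, changed by 0.95 in Purkinje and 1.03 in CA1 clones. Ctdsp2 was so called at 1 of its 3 tested probes (0.66 and 1.24). Rcor1 was at 1 of 2 (-1.05 and -1.41), and Rest at 1 of 3 (-0.56 and -0.62). The Purkinje calls of all 4 were lost without the arrays of low signal, and in Purkinje clones the sign turned for Ctdsp2 with scaling to the array median and for Rest with normexp. The Purkinje calls were also lost for Ctdsp2 without Purkinje replicates 1 or 2 or cumulus replicates 1 or 3, for Rcor1 without cumulus replicates 2 or 3, and for Rest without cumulus replicates 1 or 3. Of the CA1 calls Rest's was lost with normexp, with only the compared groups fitted and without cumulus replicates 1 or 3, and Hdac1's with normexp and with only the compared groups fitted. At that Rest probe CA1 clones lay on the floor, and the first Rest probe did not pass in either comparison. Mean Hdac1 levels in females were 5.13 in Purkinje clones, 5.21 in CA1 clones, 5.23 in IVF embryos and 4.18 in cumulus clones. Against female IVF embryos Hdac1 was called in cumulus clones (-1.05, adjusted p = 0.0165, limma) and in neither neuron group. In females Hdac1 was thus low in cumulus clones and not called above IVF embryos in neuron clones. In males it was called above IVF embryos in CA1 (0.59) and Sertoli clones (0.66). At the same probes Ctdsp2 and Rcor1 were called against IVF embryos in female CA1 clones (0.65 and -0.96). The medians of the 25 probes were -0.06, 0.01, -0.08 and 0.16 in the 4 comparisons.

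For the 3 members whose group means varied most, the genes most like them were sought by Pearson correlation over the 33 arrays among 15297 other genes. Nefl was closest to Lrrc34 (r = 0.81), Mzf6d (0.81) and Cnpy1 (0.79). Rtn1 was closest to Dlg3 (0.80), Galk2 (0.79) and Igf1 (0.78). Eno2 was closest to Brip1os (0.79), Epn2 (0.72) and Rpap3 (0.71). These values describe shared differences between groups and array sets. The paired probes of a member correlated at r = 0.85 for Nefl, 0.79 for Rtn1 and 0.99 for Eno2 over the same arrays, and at 0.69, 0.47 and 0.97 after group means were removed.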

How the data were processed

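Scanner files of 33 arrays gave intensity values that Agilent Feature Extraction had background-corrected (gProcessedSignal), with 1 array per blastocyst, per the file headers. Version 10.5.1 is named in the submitters' processing notes. RNA had been amplified in 2 rounds before Cy3 labelling, per the labels' protocols. Spots of a probe were averaged, each array was divided by its 75th percentile, and values were floored at 0.09286 of it (-3.43 on the log2 scale), which held 56.1% of all values. The authors' deposited value table holds log2 values of the same arrays. It was matched by scaling to the 75th percentile, a floor at a signal of 1 and centring of each probe within a sex, with a median absolute difference of 0.0129 in males and 0.00611 in females. Its column medians ran from -0.59 to 0.77, its scaling and centring were inferred from this match, and it served as an alternative.

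Groups came from the labels, and 41174 probes were named through the files and RefSeq symbols, synonyms and accessions. Probes well above background on over 50% of a group's arrays, and above the floor on at least 3 arrays, were tested (22789 probes). A group-means model of all 8 groups was fitted with limma 3.58.1 (R 4.3.3) and eBayes, and p-values were adjusted over these probes by Benjamini-Hochberg. It was tested on simulated data. pandas 2.3.3, numpy 2.4.6 and matplotlib 3.10.9 were also used. Replicates correlated at 0.923 to 0.981 (57 pairs), and the number of arrays limits the precision.

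Alternatives covered normexp (offset 50, on median spot signals because the newer files hold no mean), quantile and median scaling, the floor, detection filters, 1 probe per gene, the arrays fitted, slide and replicate blocks, and arrays left out. Named were all 10 members and, of the further neuronal and REST lists, genes called the same way in both neuron groups of a sex, or at most the 3 largest calls in a comparison. The members and lists were chosen with earlier results of these data known. Promoter windows came from RefSeq (GRCm38.p6). A marker gene of the donor cells is not reported here.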

Additional observations from a re-analysis of the deposited data

Results flagged for a closer look

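Within groups of 4 or 7 blastocysts, 9 of 53 combinations of a tested probe and a group held a sample far from the others. The rule flags about 1 in 20 by chance where values have no ties. That rate does not hold for values tied on the floor, so the 9 cannot be set against it. In most of the 9 combinations 1 sample stood above others at or near the floor of -3.43. These were Nefl at A_51_P168646 in Sertoli clone replicate 1 (-1.99) and female CA1 clone replicate 4 (0.17), Nefm in male IVF replicate 5 (-3.23) and male Purkinje clone replicate 3 (-2.78), Uchl1 in male IVF replicate 3 (-2.44), and Map2 in male CA1 clone replicate 1 (-3.13) and female CA1 clone replicate 1 (-1.76).

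Sertoli clone replicate 4 stood below the rest of its group at both Rtn1 probes, at the floor (-3.43 at each), with the nearest other Sertoli clones at -1.87 and -2.53.

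The Purkinje minus CA1 difference of Eno2 was 0.78 in males and -2.56 in females at A_51_P130028, and 1.02 and -2.47 at A_52_P748882. Males minus females gave 3.34 and 3.50 by the test of that difference in limma (adjusted p = 0.0301 and 0.0125). The 2 probes measure the same transcript.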

How the results depend on the processing

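Counts below are of the 10 tested member probes called in either direction, and the cause of each change was not tested unless fewer samples or probes entered. With normexp the count was 1 in Purkinje against cumulus clones (Nefm, with both Eno2 calls lost), 3 in male and 1 in female Purkinje against CA1 clones, 2 in female CA1 clones against IVF and 0 for the test between sexes. Scaling to the array median, a floor at a signal of 1 and the authors' deposited values each gave 0 in male Purkinje against CA1 clones. Without a detection filter it was 0 in CA1 against Sertoli clones, 1 in Purkinje against cumulus clones, 0 in male Purkinje against CA1 clones, 1 in cumulus clones against IVF and 1 between sexes. With 1 probe per gene it was 1 in Purkinje against cumulus clones, 1 in female Purkinje against CA1 clones, 2 in male Purkinje, 4 in Sertoli and 2 in female Purkinje clones against IVF, and 1 between sexes. With only the compared groups fitted it was 2 in CA1 against Sertoli clones, 0 in Purkinje against cumulus clones, 0 in female Purkinje against CA1 clones, against IVF 1 in female Purkinje, 2 in female CA1 and 0 in cumulus clones, and 1 between sexes. With only the newer arrays, and separately with the replicate block, it was 2 in CA1 against Sertoli clones. Without the Purkinje arrays of low signal it was 0 in Purkinje against cumulus clones, in Purkinje against CA1 clones of each sex, in female Purkinje clones against IVF and between sexes. Leaving out 1 array at a time gave 0 to 0 in male Purkinje and 0 to 1 in CA1 clones against Sertoli clones, 0 to 2 in female Purkinje and 0 to 0 in CA1 clones against cumulus clones, and 0 to 1 in male and 2 to 2 in female Purkinje against CA1 clones. Against IVF it gave 3 to 5 for male Purkinje, 4 to 6 for male CA1 and 6 to 7 for Sertoli clones, 3 to 4 for female Purkinje, 3 to 4 for female CA1 and 0 to 3 for cumulus clones, and between sexes 1 to 2. Of the member values called, 311 kept their call and 70 lost it over the alternatives that keep all arrays or drop several, and 282 and 57 when 1 array was left out, and no called member changed sign. Of the member values not called, 24 gained a call over the former alternatives and 5 when 1 array was left out. Among other genes in Purkinje against cumulus clones, normexp turned Stx1a to 0.14 and Rest (A_51_P348456) to 0.50, and median scaling turned Ctdsp2 to -0.04 and Sin3b (A_52_P57526) to -0.09. Normexp moved the median of all probes to as much as 0.42 and median scaling to -0.36, both in Purkinje against cumulus clones. Samples with the same replicate number did not deviate together (correlations of -0.13 to 0.09), so the numbers share only a name. The replicate block ended the Uchl1 calls of male Purkinje and CA1 clones against IVF and the call of Nefl at A_51_P168646 in male CA1 clones. A floor at 1 and the authors' values each also ended the calls against IVF of Nefl at A_51_P168646 in male CA1, Sertoli and female Purkinje clones and of Rtn1 at A_51_P444264 in female CA1 and at both probes in cumulus clones. Median scaling ended those of Eno2 at A_51_P130028 in male Purkinje and female CA1 clones and of Rtn1 at A_52_P424959 in cumulus clones. Normexp ended those of Nefl at A_51_P168646 in female Purkinje clones, of Eno2 at A_51_P130028 in female CA1 clones and of Rtn1 at A_51_P444264 in female CA1 and cumulus clones. With only the compared groups fitted, no Nefl call against IVF in females passed. Signals near background limit Nefm, Map2, Snap25, Syt1 and Gap43.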

Other observations

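Markers of single donor cell types were measured beside the pan-neuronal genes, 6 genes for each type. Wfs1, a protein of the endoplasmic reticulum used as a CA1 marker, rose against IVF in Purkinje, CA1 and Sertoli males (1.20, 1.84 and 0.97) and in Purkinje and CA1 females (0.91 and 1.52). It was higher in CA1 than in Sertoli clones by 0.87 ± 0.26 (adjusted p = 0.0314, limma).

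Against Sertoli clones 0 of 6 tested Purkinje marker probes were called in Purkinje clones by limma, where 3.76% of all probes were, and 1 had an unadjusted p under 0.05, where 16.9% of all probes did. Of 4 tested CA1 marker probes 1 was higher and 1 lower in CA1 clones, where 9.47% of all probes were called. The summed level of the Purkinje markers, as log2 of the sum over the 75th percentile, was 2.42 to 2.82 in male Purkinje, 1.73 to 2.22 in male CA1 and 0.49 to 2.35 in Sertoli clones. It was 1.88 to 2.44 in female Purkinje, 1.73 to 2.55 in female CA1 and -0.11 to 2.55 in cumulus clones. Of glial markers 0 of 5 tested probes were called by limma in any of the 4 comparisons of neuron clones with other clones. At an unadjusted p under 0.05 there was 1 in CA1 against Sertoli clones, 3 in CA1 against cumulus clones and 0 in both Purkinje comparisons, where 24.2%, 29.8%, 16.9% and 28.7% of all probes had one. Of Sertoli cell and cumulus cell markers 2 probes each were tested, and 1 was called there, a cumulus marker probe that was higher in CA1 than in cumulus clones, where 17.2% of all probes were called.

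Among further neuronal genes against IVF, Kif5a, an axonal kinesin, rose in male Purkinje, CA1 and Sertoli clones by 2.91, 2.99 and 2.24, and Chga by 1.45, 2.18 and 1.95. Tubb2b fell in the same groups (-2.36, -1.87 and -3.80). Counts on the list of 41 probes were 5 higher and 3 lower, 8 and 2, and 6 and 3 in these males, and 3 and 2, 2 and 1, and 0 and 1 in Purkinje, CA1 and cumulus females. Of all probes 26.5%, 28.2%, 24.2%, 17.1%, 11.8% and 4.61% were called there.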
